A study of Mus musculus with 3 samples.

Results

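The genes described here are 9 cadherins of the classical and closely related families, Cdh1, Cdh2, Cdh3, Cdh5, Cdh6, Cdh11, Cdh13, Cdh15 and Cdh19, in 3 mouse melanoma cell lines. They were taken by gene symbol from an expression table of 25791 symbols, and 9 of 9 had a row. YUMM1.1, YUMM2.1 and YUMM1.7 come from melanomas that arose in engineered mice, and the labels give each by its line name alone. Genotype, strain and culture conditions are thus not known from these sources, and no treatment is named. There is 1 library of total RNA per line, so differences between lines have no replicate check, carry no p-value and cannot be separated from differences between cultures or library preparations.

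Cadherins are transmembrane proteins that hold neighboring cells together by calcium-dependent binding, mostly between molecules of the same kind. The cytoplasmic tail of the classical members binds beta-catenin and delta-catenin, and alpha-catenin couples that complex to actin. Type I and type II members differ in the outermost ectodomain repeat, and Cdh13 (T-cadherin) is held in the membrane by a lipid anchor and has no such tail. In normal skin, melanocytes use E-cadherin to contact keratinocytes, and melanomas are known for losing E-cadherin and gaining N-cadherin.

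Where 3 values follow each other below, they are for YUMM1.1, YUMM2.1 and YUMM1.7 in this order. Expression was given as FPKM, fragments scaled to transcript length and library size, which allows levels of different genes to be compared within a line. FPKM sums were 1041960 in YUMM1.1, 693156 in YUMM2.1 and 1827835 in YUMM1.7. The spacing of the lowest values implied about 68.6, 87.3 and 45.8 M fragments. A symbol was called expressed at 1 FPKM or more in at least 1 line, which held for 11741 symbols and for 4 of the 9 cadherins. Differences are given in log2(FPKM + 1), where the pseudocount of 1 understates changes of low genes, and a difference of 2 (4-fold on that scale) was counted as higher or lower. Among markers of the melanocyte lineage, Sox10 stood at 107, 44.3 and 0.00821 FPKM in YUMM1.1, YUMM2.1 and YUMM1.7. The number of 9 melanocyte markers at 1 FPKM or more was 1, 3 and 0, and Slc45a2 was listed at 0 in each line.

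N-cadherin (Cdh2), the cadherin of neural and mesenchymal cells, was abundant in each of the 3 lines. Beside it, YUMM1.1 and YUMM2.1 held Cdh19 and Cdh6, whereas YUMM1.7 held Cdh13, with little Cdh6 and almost no Cdh19. The other 5 cadherins, E-cadherin (Cdh1), P-cadherin (Cdh3), VE-cadherin (Cdh5), Cdh11 and M-cadherin (Cdh15), lay below 0.16 FPKM in each line.

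**Figure D1:**
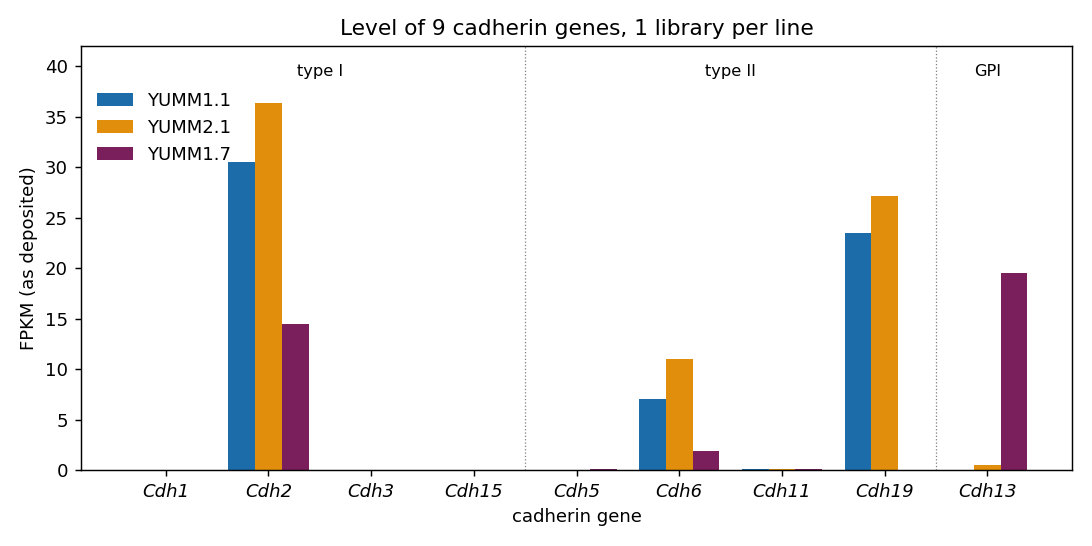
FPKM as deposited (vertical axis) of the 9 cadherin genes in YUMM1.1, YUMM2.1 and YUMM1.7, grouped by type, with 1 library per bar and no error bars. Cdh2 is present in each line, Cdh19 reaches 23.5 and 27.1 FPKM in YUMM1.1 and YUMM2.1, and Cdh13 reaches 19.5 FPKM in YUMM1.7.

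Among the type I members, Cdh2 stood at 30.5 FPKM in YUMM1.1, 36.3 in YUMM2.1 and 14.5 in YUMM1.7. Its level exceeded that of 78.9%, 84.0% and 65.5% of the expressed symbols of the same line. YUMM2.1 and YUMM1.1 were close to each other, with a difference of 0.24 on the log2(FPKM + 1) scale. YUMM1.7 was the lowest line, at 1.27 below YUMM2.1 and at a difference of -1.02 from YUMM1.1, both short of the 4-fold rule. The value in YUMM2.1 rests on about 15361 fragments and that in YUMM1.7 on about 3219, so that counting error is small beside these differences.

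E-cadherin, which joins epithelial cells and melanocytes to keratinocytes, was nearly undetected. Cdh1 had values of 0.00331 FPKM in YUMM1.1 and 0.00260 in YUMM2.1, each the worth of about 1 fragment, and was listed at 0 in YUMM1.7. At the implied depths, 3 fragments on its transcript would give 0.00987, 0.00776 and 0.0148 FPKM, so the 3 values lie below that limit and no order can be read from them. Cdh3, the P-cadherin of basal epithelium, was at 0.00361 FPKM in YUMM2.1 and listed at 0 in the other lines. The muscle cadherin Cdh15 stood at 0.0106, 0.00414 and 0 FPKM in YUMM1.1, YUMM2.1 and YUMM1.7. None of these type I genes other than Cdh2 exceeded the worth of 3 fragments in any line.

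The lack of Cdh1 and Cdh3 went with a lack of epithelial markers. Of 10 keratinocyte and epithelial markers, 0 reached 1 FPKM in any line, and their summed level was 0.112, 0.0572 and 0.106 FPKM. Krt5, Krt8 and Epcam, defining genes of this group, were at 0 in 1 or more lines. Of 13 desmosome genes, 10 were listed at 0 in YUMM1.1, 9 in YUMM2.1 and 10 in YUMM1.7. Of the 13, 1 reached 1 FPKM, which was Pkp2, a plakophilin also found at junctions outside desmosomes, at 3.77, 4.27 and 3.10 FPKM. The plakophilins Pkp1 and Pkp3 were at 0.0847, 0.148 and 0.00481 FPKM and at 0.0106, 0.0207 and 0.703 FPKM. Desmosomal cadherins of the Dsc and Dsg groups thus gave no substitute signal, the highest being Dsg4 at 0.00334 FPKM in YUMM2.1. Of 10 skeletal muscle markers, which include Cdh15, 0, 0 and 1 reached 1 FPKM, and their summed level was 0.829, 0.590 and 5.58 FPKM. Chrna1, an acetylcholine receptor subunit gene, held most of it at 0.806, 0.517 and 5.52 FPKM, while Myod1 and Myog were listed at 0 in each line.

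Among the type II members, Cdh19 separated the lines most widely. Cdh19 is known from Schwann cell precursors and other cells of the neural crest. It stood at 23.5 FPKM in YUMM1.1, 27.1 in YUMM2.1 and 0.0145 in YUMM1.7. The first 2 values rest on about 6301 and 9262 fragments and the last on about 2.59, which is under the 0.0167 FPKM that 3 fragments would give. YUMM1.1 and YUMM2.1 therefore lay together and YUMM1.7 lay far below both. On the log2(FPKM + 1) scale, YUMM2.1 minus YUMM1.1 was 0.20, YUMM2.1 minus YUMM1.7 was 4.79 and YUMM1.7 minus YUMM1.1 was -4.59.

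Neural crest and Schwann cell markers moved with Cdh19. Of 10 such markers, 8 were lower in YUMM1.7 than in YUMM2.1 by the 4-fold rule, against 3.13% of all expressed symbols. Of the 10, 8 were lower in YUMM1.7 than in YUMM1.1, against 3.06%, and 0 were higher in either comparison. Their summed level was 1063, 339 and 15.9 FPKM in YUMM1.1, YUMM2.1 and YUMM1.7. Relative to YUMM1.1, YUMM2.1 had 4 of the 10 lower (1.11% of all expressed symbols) and 0 higher, while its Cdh19 value differed by 0.20. Gfap, a glial filament gene of the same list, was listed at 0 in YUMM1.7. In RNA from whole cultures, fewer cells of a type and less RNA per cell cannot be told apart, and the part of the markers in the Cdh19 difference was not tested.

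Cdh6 (K-cadherin), a type II cadherin of the early neural crest and kidney, was intermediate in level. Its level was 7.07 FPKM in YUMM1.1, 10.99 in YUMM2.1 and 1.87 in YUMM1.7. YUMM2.1 was the highest line and YUMM1.7 the lowest, with YUMM2.1 minus YUMM1.1 at 0.57, YUMM2.1 minus YUMM1.7 at 2.06 and YUMM1.7 minus YUMM1.1 at -1.49. The difference of 2.06 lies just past the 4-fold rule and falls to 1.22 with a pseudocount of 5. Cdh6, like Cdh2, Cdh19 and Sox10, was lowest in YUMM1.7, though it was highest in YUMM2.1 and Sox10 in YUMM1.1. The 250 bases before the Cdh6 start are shown because 1 member, Cdh6, had a usable promoter sequence. They lie on the minus strand at chr15:13173676-13173925 of GRCm38.p6 and come from RefSeq, which need not be the annotation the authors used. Capitals mark a match to ACAAAG, a core letter string of SOX factors.
Cdh6: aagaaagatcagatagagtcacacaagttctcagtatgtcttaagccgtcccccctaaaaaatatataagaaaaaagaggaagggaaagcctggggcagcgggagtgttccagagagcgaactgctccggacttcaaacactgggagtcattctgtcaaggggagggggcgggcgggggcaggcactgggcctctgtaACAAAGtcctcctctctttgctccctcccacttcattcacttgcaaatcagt
ACAAAG was searched on both strands and matched 1 time, from 52 to 47 bases before the start. Of 32851 RefSeq windows of the same length, 16.5% hold this string. The E-box letters CANNTG also matched 1 time, as CACTTG from 15 to 10 bases before the start, with no overlap with the first match, and 66.2% of the windows hold them. The Snail-type E-box CACCTG was searched too and did not match, and 17.2% of the windows hold it. The stretch holds 6 CpG pairs and is 51.2% G and C. These matches describe letters and say nothing of binding.

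The remaining type II members were low. Cdh11, a cadherin of osteoblasts and mesenchyme, stood at 0.132 FPKM in YUMM1.1, 0.101 in YUMM2.1 and 0.0771 in YUMM1.7. These values rest on about 51.2, 49.7 and 19.9 fragments, so Cdh11 was detected in each line at a low level. Cdh5, the VE-cadherin of endothelial junctions, had a value of 0.153 FPKM in YUMM1.7 and 0 in both other lines, from about 27.9 fragments. Of 10 endothelial markers, 1 reached 1 FPKM in each line, which was Flt1 at 5.36, 8.95 and 5.13 FPKM. The defining markers Pecam1 and Kdr lay below 0.03 FPKM and Tie1 was listed at 0 in each line. Of 10 leukocyte markers, 1, 3 and 0 reached 1 FPKM, with a summed level of 5.497, 33.3 and 1.99 FPKM. Lyz2, a lysozyme gene of myeloid cells, was at 4.96, 25.9 and 0.0480 FPKM, and Cd68 and Cd53 were at 4.27 and 3.01 FPKM in YUMM2.1. The pan-leukocyte gene Ptprc was at 0, 0.00217 and 0 FPKM.

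Cdh13 was high in the line where Cdh19 was low. T-cadherin is known as a receptor for adiponectin and low-density lipoprotein on vascular cells, and its annotated coding sequence was the shortest of the 9, with 714 codons against 770 to 906. Its listed values were 0 FPKM in YUMM1.1, 0.481 in YUMM2.1 and 19.5 in YUMM1.7. The values rest on about 159 fragments in YUMM2.1 and 3386 in YUMM1.7, and 3 fragments in YUMM1.1 would give 0.0116 FPKM. On the log2(FPKM + 1) scale, YUMM2.1 minus YUMM1.7 was -3.79 and YUMM1.7 minus YUMM1.1 was 4.36. YUMM2.1 minus YUMM1.1 was 0.57, and with a pseudocount of 0.1 it was 2.54. A value listed at 0 can be a failed estimate. Of the expressed symbols with 20 FPKM or more in both other lines, 0 were listed at 0 in YUMM1.1, 1 in YUMM2.1 and 6 in YUMM1.7. Cdh13 itself, at 0.481 and 19.5 FPKM in the other lines, falls outside this set. These counts thus cannot decide how its value of 0 in YUMM1.1 arose.

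Fibroblast markers stood in the same order as Cdh13 in part. Of 10, YUMM1.7 exceeded YUMM1.1 by the 4-fold rule for 4 and was below it for 1 (Col3a1), against 3.95% and 3.06% of expressed symbols. YUMM1.7 exceeded YUMM2.1 for 4 of the 10, against 5.54%. In both comparisons the 4 were Pdgfra, Pdgfrb, Col1a2 and Cd34. The summed level of the 10 was 99.7, 50.6 and 191 FPKM in YUMM1.1, YUMM2.1 and YUMM1.7. Thy1 and Lum lay at or below 0.0356 FPKM in each line. The collagen gene Col3a1, at 98.7 FPKM, held most of the YUMM1.1 sum. Col1a2, at 127 FPKM, held most of the YUMM1.7 sum, while Col1a1 stood at 1.79 FPKM in YUMM1.7. The part of these markers in the Cdh13 difference was not tested. Cdh11, which fibroblasts also use, did not share this order.

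Counted over the 9 members, the 4-fold rule was passed by 0 in YUMM2.1 against YUMM1.1, where 1.47% of all expressed symbols were higher and 1.11% lower. In YUMM2.1 against YUMM1.7, 2 members were higher (Cdh6 and Cdh19) and 1 lower (Cdh13), against 3.13% and 5.54% of all expressed symbols. In YUMM1.7 against YUMM1.1, 1 was higher (Cdh13) and 1 lower (Cdh19), against 3.95% and 3.06%. The median over the 9 members was 0.01, 0.01 and -0.02 in these comparisons, beside -0.05, -0.02 and 0.02 over all expressed symbols. Since 5 of the 9 members lay below 1 FPKM in each line, these medians are values of Cdh3 and Cdh15, which were nearly undetected. They say nothing of the 4 expressed members. Members below 1 FPKM could not reach the 4-fold rule on this scale, and the 3 comparisons share libraries. The plot of alternatives shows how these 4 expressed members moved with the pseudocount and the scaling.

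**Figure D2:**
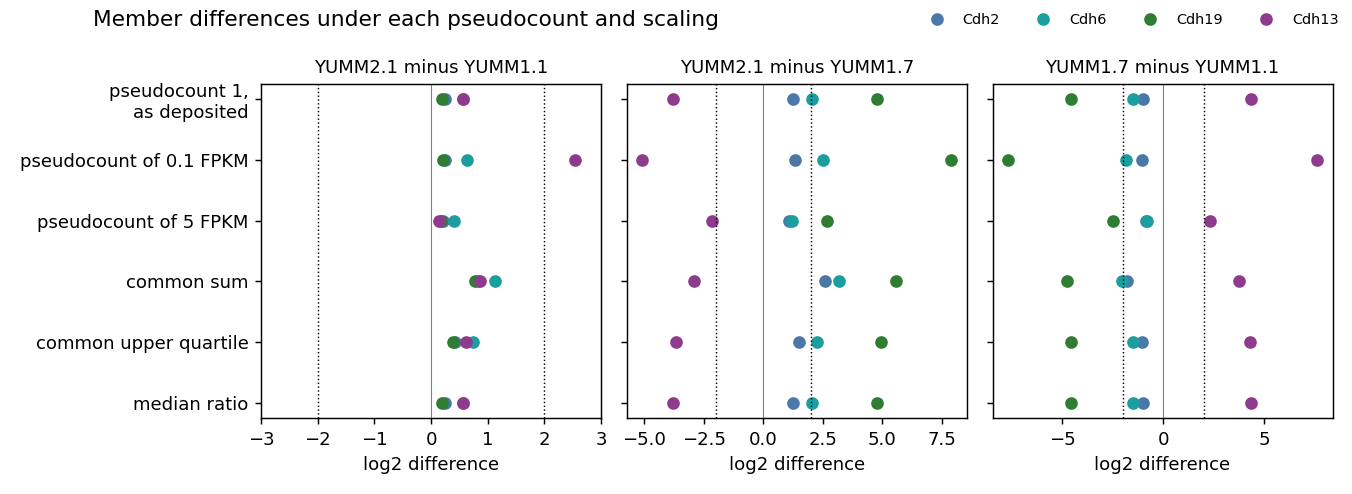
Difference in log2 (horizontal axis) of the 4 expressed cadherins for each pair of lines, with 1 row for each pseudocount or scaling and the 4-fold rule as dotted lines. Cdh19 and Cdh13 stay beyond the dotted lines in both comparisons with YUMM1.7, where Cdh19 ranges from 2.68 to 7.89 for YUMM2.1 minus YUMM1.7, while Cdh6 crosses the line in both and Cdh2 in the first, under some settings.

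Transcripts of the members span 3.25 to 8.17 kb. Expressed symbols of 3 to 9 kb had medians of 0.03, 0.22 and -0.12, and those under 1 kb of -0.47, -1.19 and 0.72, so that the median difference varied with transcript length.

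**Figure D3:**
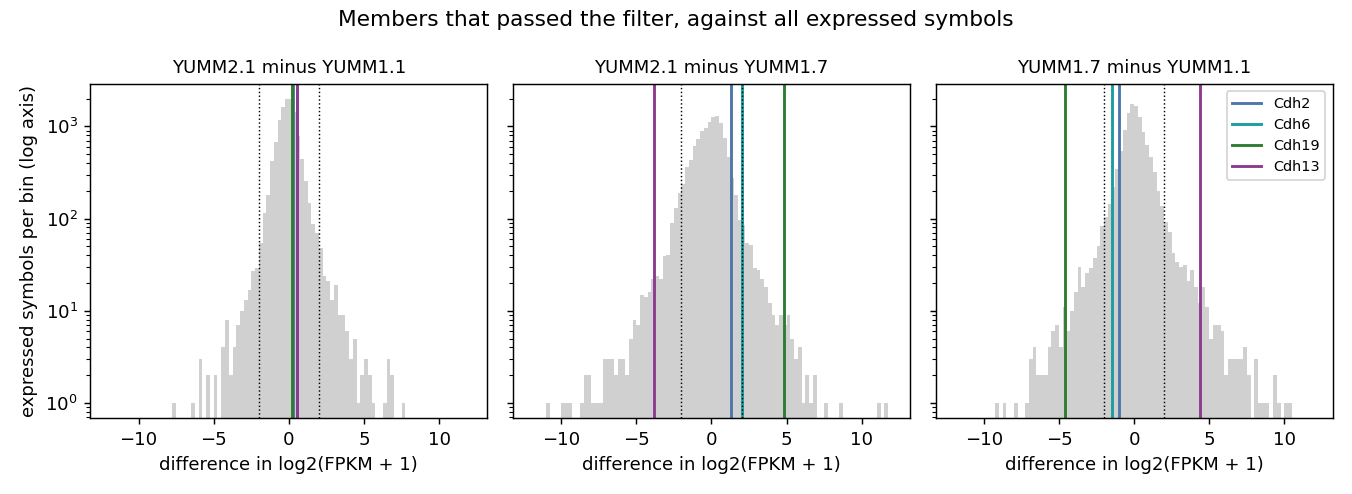
Number of expressed symbols (vertical log axis) by their difference in log2(FPKM + 1) for each pair of lines, with the 4 expressed cadherins as colored lines and the 4-fold rule as dotted lines. In the first panel the 4 cadherins lie between 0.20 and 0.57, where Cdh6 and Cdh13 overlap, and in the others Cdh19 and Cdh13 lie on opposite sides beyond the dotted lines.

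Shares within a line do not depend on how the libraries were scaled to each other. Of the summed FPKM of the 9 members, Cdh2 held 49.9% in YUMM1.1, 48.4% in YUMM2.1 and 40.1% in YUMM1.7. Cdh19 held 38.3%, 36.1% and 0.0400%, and Cdh13 held 0%, 0.642% and 54.0%. Cdh6 held 11.6%, 14.6% and 5.18%. YUMM1.1 and YUMM2.1 thus had nearly the same makeup, led by Cdh2, then Cdh19, then Cdh6. In YUMM1.7 the order was Cdh13, Cdh2, Cdh6, and the type II members together made up 5.85% of the sum, where YUMM1.1 had 50.1% and YUMM2.1 had 50.9%. The spread of these shares between cultures is unknown, since each line is 1 library.

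**Figure D4:**
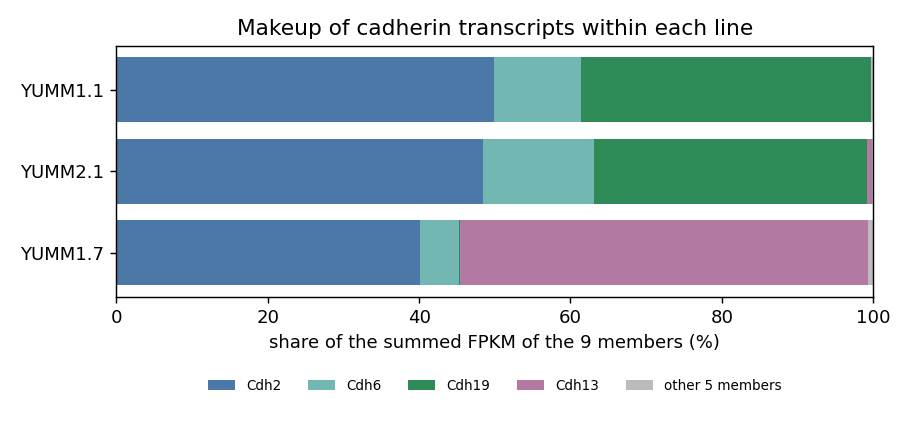
Share of each cadherin (%) in the summed FPKM of the 9 members, for 1 library of each line. Cdh2 takes between 40.1% and 49.9% of each bar, and the Cdh19 segment of YUMM1.1 and YUMM2.1 has a counterpart of Cdh13 at 54.0% in YUMM1.7.

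The summed level of the 9 members was 61.2 FPKM in YUMM1.1, 75.0 in YUMM2.1 and 36.2 in YUMM1.7. Without Cdh13, which has no catenin-binding tail, the sum was 61.2, 74.5 and 16.6 FPKM. Set against alpha-catenin (Ctnna1) of the same line, the tailed cadherins gave a ratio of 1.002 in YUMM1.1, 1.66 in YUMM2.1 and 0.498 in YUMM1.7. Against beta-catenin (Ctnnb1) it was 0.613, 0.812 and 0.287. YUMM2.1 was the highest and YUMM1.7 the lowest line by both ratios. These are ratios of transcripts, not of proteins.

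The catenins themselves were expressed in each line. Ctnnb1 stood at 99.9 FPKM in YUMM1.1, 91.8 in YUMM2.1 and 58.1 in YUMM1.7, and Ctnna1 at 61.1, 45.0 and 33.4. Of 13 catenins and partners in the table, 7 were expressed. Of the 13, 0 passed the 4-fold rule in any of the 3 comparisons, where 1.11% to 5.54% of all expressed symbols did in each direction. The list medians of -0.01, 0.25 and -0.28 include the low genes, whose differences the pseudocount understates. Plakoglobin (Jup), which can take the place of beta-catenin on the tail, stood at 3.11, 0.234 and 0.620 FPKM. Mllt4, which encodes the actin-binding afadin, stood at 2.01, 8.70 and 4.79, vinculin (Vcl) at 17.2, 38.6 and 14.0, and Pkp4 at 3.41, 8.31 and 9.32. The neuronal and muscle alpha-catenins Ctnna2 and Ctnna3 were at or near 0.

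Of 14 regulators of cadherin transcription, 9 of them expressed, YUMM1.7 exceeded YUMM1.1 by the 4-fold rule for 3, against 3.95% of all expressed symbols. YUMM1.7 exceeded YUMM2.1 for 2, against 5.54%, and YUMM2.1 exceeded YUMM1.1 for 1, against 1.47%. In the opposite directions the counts were 0. The list medians were 0.00 for YUMM2.1 minus YUMM1.1, 0.00 for YUMM2.1 minus YUMM1.7 and 0.01 for YUMM1.7 minus YUMM1.1. Genes below 1 FPKM in each line lie near 0 on this scale and pull these medians there. Snai1, a repressor of Cdh1, stood at 0.121 FPKM in YUMM1.1, 0.0472 in YUMM2.1 and 14.6 in YUMM1.7. Twist2 stood at 0.966, 0.845 and 10.6, and Zeb1, another repressor of Cdh1, at 1.15, 8.11 and 8.71. Snai2, related to Snai1, was lowest in YUMM1.7, at 10.5, 4.90 and 2.07 FPKM. Zeb2 was also lowest in YUMM1.7, at 18.1, 10.6 and 5.16 FPKM. Klf4, of the same list, stood at 14.0, 7.73 and 6.30 FPKM, and Twist1 at 10.9, 19.7 and 32.6. Tcf3 stood at 27.6, 14.6 and 41.1 FPKM, while Tcf4 was lowest in YUMM1.1 at 1.71 and highest in YUMM1.7 at 7.71. Each line thus held expressed genes of this list, in different proportions, and Cdh1 was near 0 throughout. The part of these genes in the level of Cdh1 was not tested. Grhl2, Ovol2, Esrp1 and Esrp2, which belong to epithelial programs, lay at or below 0.0130 FPKM.

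Among 10 genes of cadherin maturation, shedding and turnover, YUMM2.1 exceeded YUMM1.7 by the 4-fold rule for 2, against 3.13% of all expressed symbols. YUMM1.1 exceeded YUMM1.7 for 1, against 3.06%. Adam10, the protease that sheds the ectodomains of N-cadherin and E-cadherin, stood at 75.0, 80.6 and 16.3 FPKM. Pcsk6, a proprotein convertase, stood at 2.27, 4.90 and 0.0151. Furin, a convertase that removes cadherin propeptides, stood at 21.4, 20.95 and 42.2 FPKM. Psen2 stood at 8.19, 6.56 and 3.20, and Pip5k1c at 12.1, 8.21 and 21.6. The list medians were -0.03, 0.16 and -0.09 in the order of comparisons given above.

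**Figure D5:**
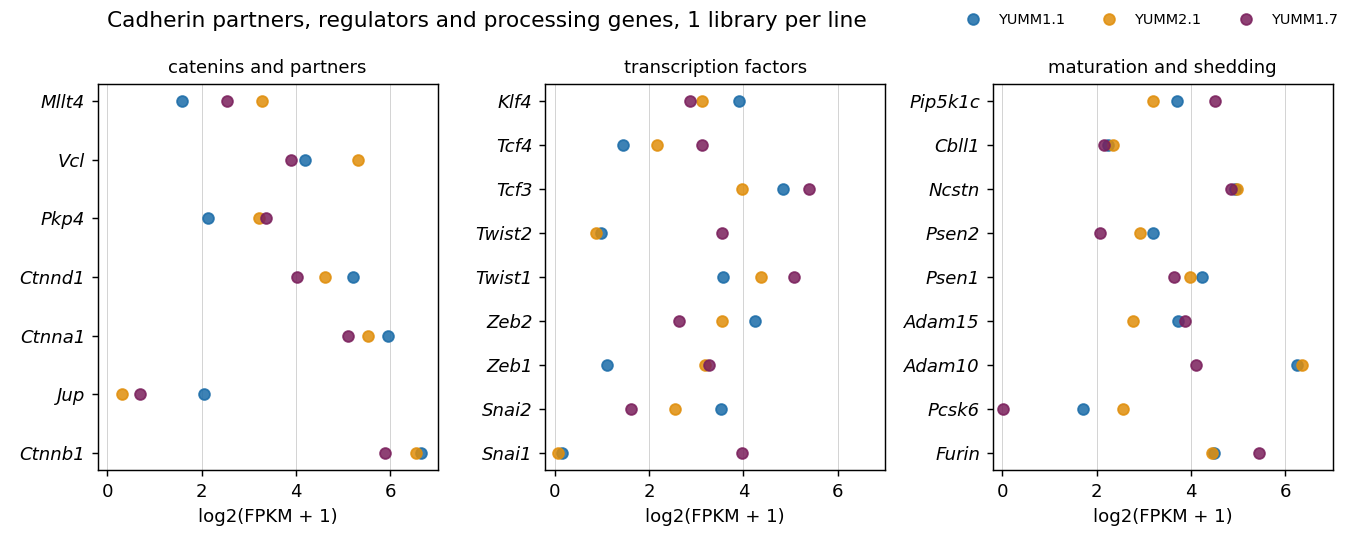
Level in log2(FPKM + 1) (horizontal axis) of the expressed catenins and partners, transcription factors and processing genes, with 1 point per line and 1 library per point. Snai1 and Twist2 are set apart by high points of YUMM1.7, and Adam10 and Pcsk6 by low ones.

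The 13 other cadherins of the family were also low in each line. Of these, 2 reached 1 FPKM in a line. That 0 passed the 4-fold rule follows from their levels, since none was high enough to reach it with a pseudocount of 1. Cdh10 was at 0.571, 1.31 and 0 FPKM. Cdh26 stood at 2.34 FPKM in YUMM1.7, at 0.00519 in YUMM1.1 and at 0 in YUMM2.1. Cdh7, Cdh8, Cdh9, Cdh12, Cdh16, Cdh18 and Cdh20 were listed at 0 in each line.

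Across the 3 libraries, likeness of pattern was measured as the distance between centered log2(FPKM + 1) values, over 10128 expressed symbols without predicted genes. This distance grows with the size of the differences, so Sox10, with its wide range, lies far from any gene that varies less. The nearest symbols to Cdh19 were the laminin gene Lama4 (distance 0.25; 41.8, 38.8 and 0.431 FPKM in YUMM1.1, YUMM2.1 and YUMM1.7), Atp6v0e2 (0.26) and Enpp5 (0.30). Sox10 ranked at place 85 for Cdh19, at a distance of 1.56, at place 9904 for Cdh6 (3.78) and at place 10116 for Cdh13 (8.43). The nearest to Cdh13 were the fatty acid transporter gene Slc27a1 (0.11; 0.753, 1.37 and 35.1 FPKM), the cytidine deaminase gene Cda (0.16) and Bmp2 (0.20). The nearest to Cdh6 were Svip (0.02), Psrc1 (0.07) and the dystrophin gene Dmd (0.07). With 3 libraries many symbols share a pattern, and nearness is given as a description.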

How the data were processed

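Libraries of total RNA from 3 lines, 1 each, were sequenced. The submitters' processing notes name TopHat2 2.0.9, Cufflinks and Cuffnorm. The deposited values are FPKM per gene symbol, made by the authors; no source used here gives the genome build, annotation, filters or scaling between libraries. The members and gene lists were chosen with earlier results of these data known. Values were used as deposited, on the log2(FPKM + 1) scale, for 11741 symbols with at least 1 FPKM in a line. A difference of 2 was counted, without p-values.

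Named genes were the 9 members, up to 4 genes with the largest difference from each list, further members of those lists where a result turned on them (chosen after their values were seen), and the 3 symbols nearest to each member with a range of 2 or more. The value of 1 fragment was read from the regular spacing of low FPKM values times transcript length, in 808 genes with a single transcript of 3 kb or more. Of these genes, 81, 87 and 70 had low values above 0 in YUMM1.1, YUMM2.1 and YUMM1.7. Of those low values, 82.7%, 81.6% and 77.1% came within 0.2 of whole fragments. The step was fitted to the same values, so this closeness is no independent check of it. Fragment numbers are approximate and cover counting error only. The step and the count rule were tested on simulated data with planted folds and counting error. Those data held no variation between cultures or libraries, so the test does not cover it. Lengths came from GENCODE M21, for 85.0% of expressed symbols. Of 36 pairs of members, 1 (Cdh13 and Cdh19) shared any 30-base string in annotated transcripts, 3 such strings, so few reads could be assigned to the wrong member. Alternatives were pseudocounts of 0.1 and 5, no filter, a filter at 5 FPKM, and rescaling to a common sum, upper quartile or median ratio. Python 3.11.15, numpy 2.4.6, pandas 2.3.3 and matplotlib 3.10.9 were used.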

Additional observations from a re-analysis of the deposited data

How the results depend on the processing

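For Cdh2, Cdh6, Cdh13 and Cdh19, differences kept their sign in each of the 3 comparisons under each scaling tried. A change of pseudocount alters the size of a difference and cannot change its sign. The calls of Cdh19 and Cdh13 against YUMM1.7 held under each alternative. With a pseudocount of 0.1, 1 member (Cdh13) was higher in YUMM2.1 than in YUMM1.1 instead of 0. With a pseudocount of 5, 1 member (Cdh19) was higher in YUMM2.1 than in YUMM1.7 instead of 2. After rescaling to a common sum, 2 members (Cdh6 and Cdh19) were lower in YUMM1.7 than in YUMM1.1 instead of 1, and Cdh2 passed the rule in YUMM2.1 against YUMM1.7 at 2.60. That scaling moved the median of expressed symbols to 0.43, 1.12 and -0.62, and the differences above include this shift. The common upper quartile, the median ratio, no filter and a filter at 5 FPKM changed no count of members. Removing the filter could not, since members below 1 FPKM cannot reach the rule. Shares within a line were the same after sum scaling, tried after seeing the data, as they must be by arithmetic.

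Counts over all symbols, higher and lower, depended on the same settings. As reported, YUMM2.1 relative to YUMM1.1 had 173 and 130, YUMM2.1 relative to YUMM1.7 had 367 and 650, and YUMM1.7 relative to YUMM1.1 had 464 and 359. In that order, they were 504 and 273, 797 and 990, and 830 and 672 with a pseudocount of 0.1, then 44 and 57, 116 and 361, and 201 and 130 with a pseudocount of 5. They were 362 and 90, 1674 and 201, and 273 and 653 after sum scaling. No paired analysis was possible because each line has 1 library. Cdh1, Cdh3 and Cdh15, and Cdh19 in YUMM1.7, lay under the worth of 3 fragments, where depth limits how exactly a value can be read.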

Other observations

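Other genes of the cadherin superfamily, in lists chosen after the data were seen, were also read across the lines. Of 12 unclustered protocadherins, YUMM1.7 was lower by the 4-fold rule for 1 (Pcdh1) and higher for 1 (Pcdh19), relative to YUMM2.1 and also relative to YUMM1.1. Over all expressed symbols, YUMM1.7 was lower than YUMM2.1 for 3.13% and higher for 5.54%. Relative to YUMM1.1, YUMM1.7 was lower for 3.06% and higher for 3.95%. Pcdh1 stood at 50.9 FPKM in YUMM1.1, 43.3 in YUMM2.1 and 8.16 in YUMM1.7. Pcdh19 was at 0.00701, 0 and 4.50 FPKM in the same order. Pcdh18 stood at 2.33, 8.44 and 1.56 FPKM and Pcdh7 at 12.3, 14.5 and 7.29.

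Of 8 Fat, Dachsous and Flamingo cadherins in the table, Fat1, a giant cadherin known to act on growth control and cell polarity, was the one at 1 FPKM or more. It stood at 6.84 FPKM in YUMM1.1, 20.9 in YUMM2.1 and 7.18 in YUMM1.7, a difference of 1.48 for YUMM2.1 against YUMM1.1. Calsyntenin 1 (Clstn1) stood at 33.7, 19.9 and 25.8 FPKM. Cdh23, a cadherin of hair cell tip links, was at 0.00673, 0.0295 and 0.305 FPKM.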
